A study of Mus musculus with 10 samples.

Results

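The replication-dependent histone genes supply the core histones H2A, H2B, H3 and H4 and the linker histone H1 that package newly copied DNA. All genes whose symbol starts with Hist1h, Hist2h, Hist3h or Hist4h were taken, which gave 67 of the 22380 genes quantified: 6 H1, 18 H2A, 18 H2B, 12 H3 and 13 H4 genes. They were measured by RNA-sequencing of NP-binding germinal center B cells (GL7+ IgD-), sorted from mice immunized with the hapten NP coupled to ovalbumin in alhydrogel. The 10 libraries comprised 2 ZBTB38 WT (Zbtb38 fl/fl without Cre), 2 ZBTB38 HET (Zbtb38 fl/+ x Vav-Cre) and 6 ZBTB38 KO (Zbtb38 fl/fl x Vav-Cre), all labelled strain C57Bl6/N, and the labels give neither age nor sex. Every group carried at least 1 floxed allele, which came from 1 founder made in C57Bl6/J zygotes, and Vav-Cre is active primarily in hematopoietic cells. Since the WT libraries lacked Cre, an effect of Cre and of the genotype cannot be told apart in WT against KO or WT against HET. Replicates were separate samples by their labels, and p-values measure the spread between these samples.

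Replication-dependent histone genes are transcribed mainly in S phase, when the cell must coat a doubled genome with nucleosomes. Most lie in tight clusters of near-identical copies, have no introns, and make the only animal mRNAs that normally end without a poly(A) tail. Their 3′ end is a stem-loop that is bound by the protein SLBP, cut by a complex guided by the U7 small nuclear RNA, and degraded at the end of S phase. Germinal center B cells divide quickly while they mutate their antibody genes, so many of them are in S phase. The libraries were made with the SMART-Seq v4 kit, which primes reverse transcription with oligo-dT, so a histone mRNA that ends at its stem-loop offers no poly(A) tail to the primer.

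The libraries held 26612431 to 41059082 estimated counts each. Zbtb38 itself, the gene with the floxed coding exon, was at 63.5 and 63.3 TPM (a transcript's level corrected for its length and scaled to the same total in every library) in WT and 49.6 and 49.6 TPM in HET. The library labelled KO 2 held 46.1 TPM of Zbtb38, whereas the other KO libraries held 17.5 to 23.7 TPM. Zbtb38 reads outside the deleted exon also count here, and the fits against KO were repeated without the library labelled KO 2. The 4 B cell markers reported here (Ms4a1, Cd79a, Cd79b and Pax5) and the 6 germinal center markers, among them Bcl6, were above 3 counts in every library. All 6 T cell markers, 4 of 6 myeloid markers and 4 of 5 erythroid markers were also above 3 counts in every library, with none of them at 0 throughout a group.

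The sequences around the stem-loop are shown because they mark the 3′ end that defines this gene family. A perfect 6-base stem that began with GG, with a 4-base loop that began with TT, was found in the annotated 3′ end of 43 single-exon members. Hist1h2be, whose transcript has 2 exons, also had one and was left out of these counts. Capitals mark the 16 bases of the stem-loop, and lower case marks the 14 bases before it, 5′ to 3′ on the gene's strand (GRCm38). The first 7 belong to the most abundant members that had such a window, in the order of their mean level except that Hist2h2aa2 is left out, and Hist1h2ao and Hist1h2bf are shown as low copies.
Hist1h2ap, chr13:21833029-21833058, minus strand: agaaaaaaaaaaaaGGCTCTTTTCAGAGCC
Hist1h2ae, chr13:23570668-23570697, minus strand: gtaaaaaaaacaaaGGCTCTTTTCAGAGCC
Hist1h2ab, chr13:23751558-23751587, plus strand: ttaaccaaaacaaaGGCTCTTTTCAGAGCC
Hist1h4d, chr13:23581936-23581965, plus strand: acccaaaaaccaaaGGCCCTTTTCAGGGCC
Hist2h2ac, chr3:96220418-96220447, minus strand: cacgaatccaaaaaGGCTCTTTTTAGAGCC
Hist1h4i, chr13:22040966-22040995, minus strand: caatgctacttaaaGGCCCTTTTTAGGGCC
Hist1h1e, chr13:23621782-23621811, minus strand: cccaacaacccaaaGGCTCTTTTCAGAGCC
Hist1h2ao, chr13:21810884-21810913, plus strand: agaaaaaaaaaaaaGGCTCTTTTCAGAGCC
Hist1h2bf, chr13:23573765-23573794, minus strand: actcctaacccaaaGGCTCTTTTCAGAGCC

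The stem-loop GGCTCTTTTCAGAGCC occurred in 25 of the 43 members, and the form with a GGCCC stem, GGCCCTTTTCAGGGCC, occurred in 7. The stem-loop began 21 to 58 bases after the stop codon, with a median of 31. In 22 of these members the annotated transcript ended within 100 bases after the stem-loop, near where a processed histone mRNA ends. In 17 of them it ran over 300 bases past the stem-loop, and the annotation held no 3′ untranslated bases at all for 14 of the 67 members. The windows differed mainly in the bases before the stem-loop: 13 of the 14 were A in Hist1h2ap and Hist1h2ao, 11 in Hist1h2ae, 9 in Hist1h2ab and Hist1h4d, and 6 in Hist1h2bf.

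The start sites are shown because H2A and H2B genes sit in pairs that face away from each other across a short stretch. A pair of members on opposite strands with start sites under 1000 bases apart occurred 13 times, and 12 of these pairs joined an H2A with an H2B gene, 176 to 306 bases apart. The region below is the RefSeq promoter of Hist1h2bq (GRCm38.p6, chr13:21810150-21810449, minus strand), which lies between Hist1h2bq and Hist1h2ao, whose start sites are 268 bases apart. The second is the promoter of Hist1h2ae (chr13:23571171-23571470, minus strand), 176 bases from the start site of its partner Hist1h2bg. Capitals mark the CCAAT box, the TATAAA box and the octamer ATTTGCAT on either strand.
Hist1h2bq: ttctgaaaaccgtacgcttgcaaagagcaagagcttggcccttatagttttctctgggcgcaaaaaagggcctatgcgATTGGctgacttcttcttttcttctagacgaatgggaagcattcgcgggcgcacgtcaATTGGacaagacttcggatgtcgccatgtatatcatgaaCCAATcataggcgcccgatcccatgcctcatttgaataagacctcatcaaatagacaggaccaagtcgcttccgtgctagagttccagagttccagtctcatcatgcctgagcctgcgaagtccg
Hist1h2ae: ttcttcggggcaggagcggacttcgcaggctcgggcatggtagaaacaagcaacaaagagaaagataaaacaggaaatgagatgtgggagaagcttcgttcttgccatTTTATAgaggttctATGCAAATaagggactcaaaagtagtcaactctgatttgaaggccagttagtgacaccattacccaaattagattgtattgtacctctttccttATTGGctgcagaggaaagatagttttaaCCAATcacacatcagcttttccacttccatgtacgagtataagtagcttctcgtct

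A RefSeq promoter of 300 bases, 250 before and 50 after the start, matched 59 of the 67 members. CCAAT, the box bound by the factor NF-Y, was present on either strand in 84.7% of them, against 37.4% of all 32851 promoters of that length. It was present in every H1, H2A, H2B and H3 promoter tested and in 3 of 12 H4 promoters. TATAAA, which positions the basal transcription machinery, was present in 55.9% of the member promoters against 13.6% of all promoters. The octamer ATTTGCAT, which OCT1 (Pou2f1) binds, was found in 7 of 16 H2A and 6 of 16 H2B promoters and in none of the H1, H3 or H4 promoters, or 22.03% of members against 1.74% of all promoters. The windows of paired genes can overlap, so 1 match can count for both partners. The octamer and the TATAAA box next to it do so in Hist1h2ae and Hist1h2bg, and the shares of members are therefore not counts of separate sites. These letter matches describe the windows and do not show binding.

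Detection was uneven across copies of the same protein. A member was called detected in a library that held more than 3 estimated counts of it, and 48 of the 67 members were detected in every library, 14 in some and 5 in none. By class, 5 of 6 H1, 14 of 18 H2A, 13 of 18 H2B, 9 of 12 H3 and 7 of 13 H4 genes were detected in every library. The number detected per library ran from 52 in KO 6 to 62 in KO 3, with 54 and 58 in WT and 60 and 61 in HET. The 5 members without detection were Hist1h1t, Hist1h2aa and Hist1h2ba, which are testis copies of H1, H2A and H2B, together with Hist1h4m and Hist2h2aa1. Hist1h1t, Hist1h4m and Hist2h2aa1 had 0 counts in all 10 libraries. For Hist1h1t, with 100% of its 31-base stretches in no other gene, this allows up to 3 counts a library by counting error alone. In Hist1h4m and Hist2h2aa1 only 8.33% and 0% were their own. Their 0 counts therefore depend on how shared reads were divided and set no such limit.

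By the estimated levels, a single H2A copy carried most of the signal. It shares most of its sequence with other H2A copies, so its level depends on how shared reads were divided. Hist1h2ap was at 3297 and 4005 TPM in WT and 6309 and 5972 TPM in HET, and the 6 KO libraries ran from 3259 over a median of 4546 to 6609 TPM. Both HET libraries thus lay above both WT libraries, while the KO libraries spanned the whole range. It made up 75.8 to 83.3% of the summed histone TPM of a library, and 60.6 to 71.8% of the histone counts. Only 5 members averaged above 100 TPM and 22 above 10 TPM, while 45 averaged below 10 TPM. The 6 most abundant members together held 90.1 to 93.4% of the summed TPM.

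**Figure D1:**
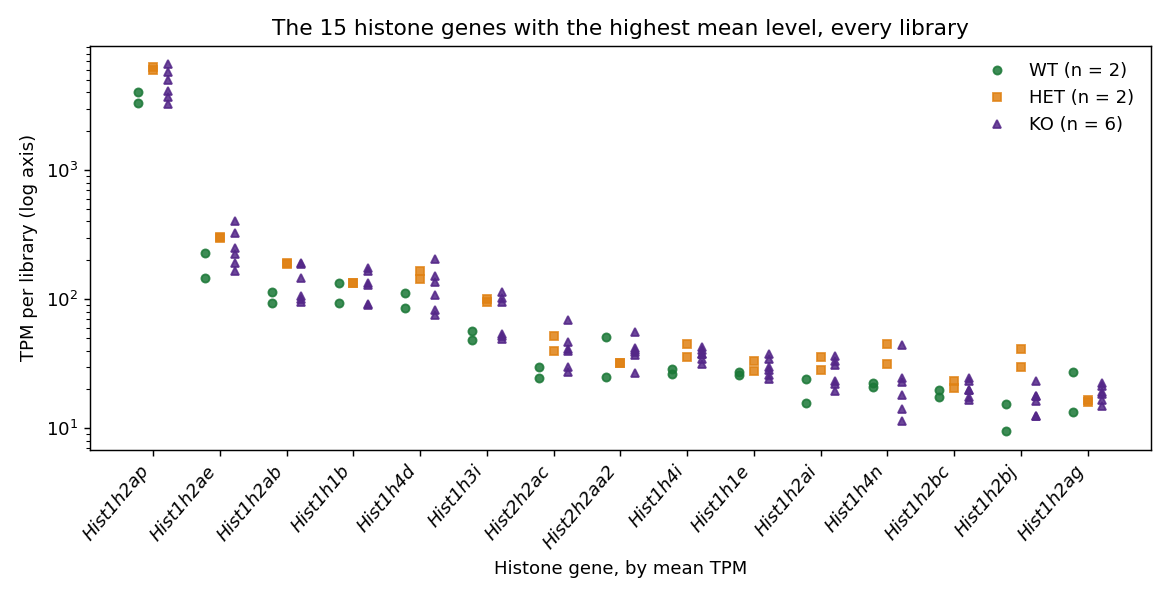
TPM of the 15 histone genes with the highest mean level, on a log axis, with each point 1 library (green circles WT, n = 2; orange squares HET, n = 2; purple triangles KO, n = 6). Hist1h2ap, with a mean of 4792 TPM, sits far above Hist1h2ae at 254 TPM, and the other 13 members average between 18.6 and 141 TPM.

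The 5 members next in order belonged to 4 classes. Hist1h2ae, an H2A copy, was at 228 and 147 TPM in WT, 303 and 300 TPM in HET, and 166 to 407 TPM in KO with a median of 236. Hist1h2ab, which encodes the same H2A protein, was at 113 and 92.9 TPM in WT, 192 and 187 TPM in HET, and 95.7 to 192 TPM in KO with a median of 126. In both, the HET libraries lay above the WT libraries and within the KO range or at its upper end. Hist1h1b, the linker histone H1.5, was at 133 and 93.1 TPM in WT, 134 and 132 TPM in HET, and 90.8 to 176 TPM in KO with a median of 132. Here WT and HET lay within the KO range. Hist1h4d, an H4 copy, was at 112 and 85.6 TPM in WT, 164 and 143 TPM in HET, and 75.0 to 204 TPM in KO with a median of 122. Hist1h3i, an H3 copy, was at 56.5 and 48.7 TPM in WT, 99.8 and 94.3 TPM in HET, and 49.2 to 114 TPM in KO with a median of 73.8. Neighbours in this order overlapped in their libraries, apart from Hist1h2ap. The mean of Hist1h2ab (141 ± 44.2 TPM), of Hist1h1b (128 ± 29.3) and of Hist1h4d (126 ± 41.2; SD, n = 10 each) differed by less than their spread.

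The remaining 9 of the 15 averaged 18.6 to 39.9 TPM. They were the H2A copies Hist2h2ac (39.9 ± 13.5 TPM, SD, n = 10), Hist2h2aa2 (37.9 ± 9.71), Hist1h2ai (26.9 ± 7.14) and Hist1h2ag (18.6 ± 4.12), the H4 copies Hist1h4i (36.0 ± 6.03) and Hist1h4n (25.5 ± 11.5), the linker histone Hist1h1e (29.3 ± 4.35), and the H2B copies Hist1h2bc (20.2 ± 2.71) and Hist1h2bj (19.6 ± 9.60). No H2B gene was above 20.2 TPM on average. These are RNA levels of single genes and do not give the ratio of H2A to H2B protein, which is equal in a nucleosome.

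The median level rose with the number of A before the stem-loop in this description, which was chosen after the values were seen and has no test. Members without such a window, among them Hist1h1b at 128 and Hist1h3i at 76.4 TPM, are not part of it. The 18 members with 3 to 6 A among the 14 bases had a median of 1.62 TPM and ran from 0 to 37.9 TPM. The 18 with 7 or 8 A had a median of 6.28 TPM and ran from 0 to 39.9 TPM, so the ranges overlapped almost wholly. The 4 with 9 A (Hist1h2ab, Hist1h4d, Hist1h2bb and Hist1h2ad) ran from 3.76 to 141 TPM with a median of 65.9. The 3 with 11 to 13 A were Hist1h2ap at 4792, Hist1h2ae at 254 and Hist1h2ao at 1.08 TPM. Long runs of A elsewhere in the annotated transcript also occurred at low levels, with a run of 15 in Hist1h2ac at 2.59 TPM and a run of 11 in Hist1h2be at 0.793 TPM. Whether the oligo-dT primer used these stretches was not tested.

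Reads shared by near-identical copies set how far single copies can be told apart. Salmon divides such reads between transcripts by estimation, and 60 of the 67 members had an estimated count that was not a whole number in at least 1 library, at a tolerance of 0.001. Of the 31-base stretches of Hist1h2ap, 6.64% occurred in no transcript of another gene, and 9.01% of its 150-base stretches did. The other stretches were shared with 20 genes, namely 17 other members, the H2A variant genes H2afj and H2afx, and Trim17. Hist1h2ao, whose window before the stem-loop is identical to that of Hist1h2ap, had 6.22% of 31-base stretches of its own and a mean of 1.08 TPM against 4792 TPM. Hist1h2bq and Hist2h2aa1 had none of their own in the transcript used, so the split between them and their twins rests on the estimate alone. Hist1h2br, with 0.163% of its own, came close to this. In contrast, 96.1% of Hist1h1b and 85.3% of Hist1h4d was their own, and Hist1h1b had whole counts in all 10 libraries. At least 90% own stretches were found in 9 members, of which Hist1h1b held the highest level.

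**Figure D2:**
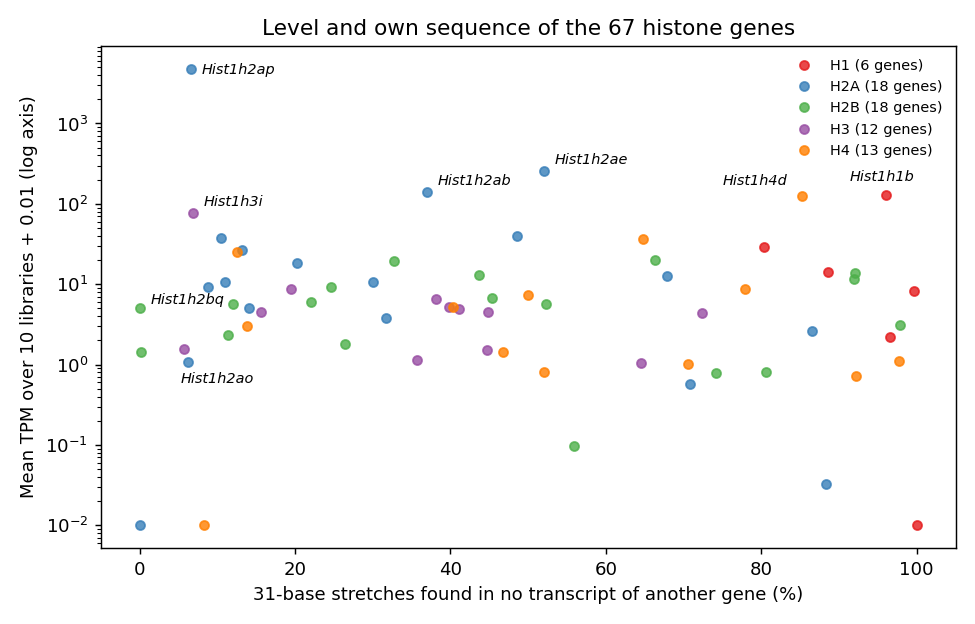
Mean TPM over the 10 libraries plus 0.01 on a log axis against the percent of 31-base stretches found in no transcript of another gene, with 1 point per histone gene, coloured by class. Hist1h2ap combines the highest mean level, 4792 TPM, with 6.64% own stretches, whereas Hist1h1b at 128 TPM has 96.1%.

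The 67 members encode 30 different proteins, and 7 of these are encoded by more than 1 member. All 13 H4 genes encode 1 protein, and 9 H2A genes, Hist1h2ap, Hist1h2ae and Hist1h2ab among them, encode another. Within the paired genes, H2A was the higher partner on average in 7 of 12 pairs and H2B in 5. Those 5 include Hist1h2bk at 9.11 TPM against Hist1h2ah at 9.10 TPM, higher in 5 of 10 libraries. They also include Hist1h2ba against Hist1h2aa, neither of which was detected. Hist1h2ap was at 4792 TPM on average and its partner Hist1h2br, 236 bases away, at 1.44 TPM. Of their 31-base stretches, 6.64% and 0.163% were their own, so both levels depend on how Salmon divided shared reads. Hist1h2ac was at 2.59 TPM and its partner Hist1h2bc at 20.2 TPM, with Hist1h2bc higher in 10 of 10 libraries. Hist1h2ag (18.6 TPM) and Hist1h2bj (19.6 TPM) were alike, and Hist1h2bj was higher in 4 of 10 libraries.

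WT against KO compares floxed mice without Cre and floxed mice with Vav-Cre. Most members had a lower level in the 2 WT than in the 6 KO libraries, but no member passed the test. Of the 56 members tested, 0 had an adjusted p under 0.1 by edgeR's quasi-likelihood test (0.00704% of the 14203 genes tested passed), and DESeq2 called 0 (0.0352% of all genes). An unadjusted p under 0.05 was reached by 3 members (2.19% of all genes), all lower in WT. The fold change was below 0, that is lower in WT, in 51 of 56 members (51.8% of all genes), with a median log2 fold change of -0.36 against -0.01 over all genes. On unscaled log2 TPM values the all-gene median shifted to 0.11 with a pseudocount of 1 and to 0.16 with 0.1, and 35 and 32 of the 56 members were then below 0. Without KO 1 the members' median was -0.20 and 41 of 55 were lower, without the library labelled KO 2 it was -0.40 with 47 of 56, and without KO 6 it was -0.42 with 47 of 56. In normalized counts both WT libraries lay below all 6 KO libraries in 5 members (2.68% of all genes), namely Hist1h2bq, Hist1h4h, Hist1h2bf, Hist1h4i and Hist1h3g.

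The 3 members under the unadjusted threshold were low copies. Hist1h2bq, an H2B copy, held 2.22 and 0 estimated counts in WT and 16.5 to 46.0 in KO, or 0.138 and 0 TPM against 2.33 to 8.87 TPM. Over the group totals, KO held 30.4 times as many counts per library total as WT, with an exact 95% interval of 8.29 to 254 that covers counting error only (edgeR unadjusted p = 0.0035, adjusted p = 0.999). All KO libraries, that labelled KO 2 included, lay above both WT libraries. The Hist1h2bq transcript that held most of its level has no 31-base stretch of its own, and of a longer one with 0.272 TPM on average 1.76% was its own. Hist1h2bf, another H2B copy that encodes the same protein, held 0 and 2.07 counts in WT and 5.39 to 16.4 counts in KO, a ratio of 11.7 with an interval of 3.11 to 98.9 (edgeR unadjusted p = 0.0472, adjusted p = 0.999). Hist1h4h, an H4 copy, was at 2.44 and 2.57 TPM in WT and 4.67 to 12.4 TPM in KO, a log2 fold change of -1.86 ± 0.80 (SE; edgeR unadjusted p = 0.0421, adjusted p = 0.999). Without the library labelled KO 2 the log2 fold change was -4.83 in Hist1h2bq, -3.06 in Hist1h2bf, whose edgeR unadjusted p was then 0.0676, and -1.99 in Hist1h4h. When the 5 H2B genes that encode this same protein were summed, the log2 fold change was -0.90 ± 0.48 (SE, adjusted p = 0.999 by edgeR), and 0 of the 26 protein groups tested reached an unadjusted p under 0.05. The same sum had -1.84 ± 0.50 in WT against HET (edgeR unadjusted p = 0.0034, adjusted p = 0.709) and 0.95 ± 0.38 in HET against KO (edgeR unadjusted p = 0.0282, adjusted p = 0.437), or 0.94 ± 0.40 without the library labelled KO 2. The sum of 8 H3 genes that encode 1 protein had -0.81 ± 0.34 in WT against HET (edgeR unadjusted p = 0.0334, adjusted p = 0.76), and no protein group had an adjusted p under 0.1 in any of the 4 comparisons. All these sums joined genes by encoded protein and not by shared sequence. Hist1h2br, outside the H2B sum, shares 31-base stretches with Hist1h2bq and held 31.95 and 31.92 counts in WT. The H2B sum therefore still depends on how reads were divided between these genes.

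Among the abundant members the fold changes were smaller, and none of the 15 had an unadjusted p under 0.05. Hist1h2ap had a log2 fold change of -0.54 ± 0.33 (SE) and Hist1h2ae of -0.62 ± 0.37. Hist1h1b, which shares few reads, had -0.35 ± 0.31, with -0.68 without WT 1 and -0.09 without WT 2. Hist1h4i had -0.59 ± 0.28 and an edgeR unadjusted p of 0.0614, with 28.9 and 26.1 TPM in WT and 31.3 to 42.9 TPM in KO. Hist2h2ac had -0.76 ± 0.42 and an edgeR unadjusted p of 0.0995, with 29.8 and 24.7 TPM in WT against 27.2 to 69.2 TPM in KO. The other 10 of the 15 most abundant members ran from -0.70 in Hist1h3i to -0.01 in Hist1h2ag.

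**Figure D3:**
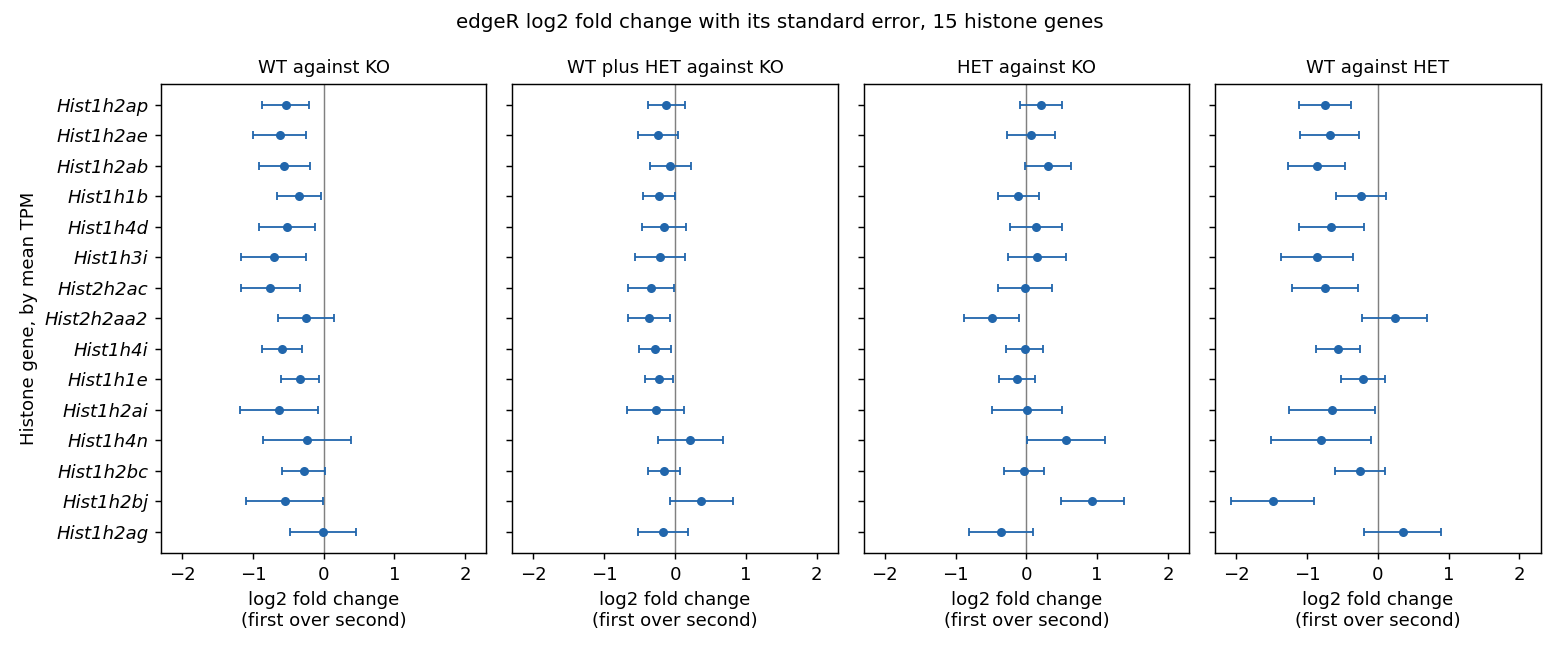
edgeR log2 fold changes (first group over second) with standard errors for the 15 histone genes with the highest mean level, in 4 panels for the 4 comparisons. Hist1h2ap lies at -0.54 in WT against KO, -0.12 in WT plus HET against KO, 0.20 in HET against KO and -0.74 in WT against HET.

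WT plus HET against KO sets all 4 control libraries against the 6 KO libraries. Here the members were centred near 0, and their direction depended on the scale. Of the 55 members tested, 0 had an adjusted p under 0.1 by edgeR (0.00749% of the 13347 genes tested) and 0 by DESeq2 (0.135%), and 0 reached an unadjusted p under 0.05 by edgeR (6.3%). The fold change was below 0 in 32 of 55 members (52.8% of all genes) with a median of -0.05 against -0.02 over all genes, whereas 23 of 55 were below 0 on unscaled log2(TPM + 1) values. The median turned above 0 without WT 1 (0.02), WT 2 (0.03), KO 1 (0.04) or KO 3 (0.03), and was -0.08 without the library labelled KO 2. Hist1h3f, an H3 copy, had the smallest p: it was at 1.47 and 0.821 TPM in WT, 1.09 and 1.18 TPM in HET and 0.686 to 2.97 TPM in KO (log2 fold change -0.79 ± 0.58, SE, adjusted p = 0.766). The next 4 in order were Hist2h2aa2 at -0.37 ± 0.29, Hist1h4i at -0.28 ± 0.22, Hist1h3g at -0.65 ± 0.53 and Hist1h1e at -0.23 ± 0.20, and their groups overlapped in all of them. Hist1h2ap had -0.12 ± 0.27, with 4 control libraries at 3297 to 6309 TPM and KO at 3259 to 6609 TPM.

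HET against KO compares groups that both carry Vav-Cre. The HET libraries held more of most copies in every class but H1, and no member passed the test. Of the 58 members tested, 0 had an adjusted p under 0.1 by edgeR (0.00697% of the 14354 genes tested) and 0 by DESeq2 (3.19%), and 0 reached an unadjusted p under 0.05 by edgeR (10.2%). The fold change was below 0 in 18 of 58 members (56.3% of all genes) and 40 were higher in HET, with a median of 0.18 against -0.07 over all genes. By class, 15 of 17 H2B and 8 of 11 H3 genes were higher in HET, with medians of 0.60 and 0.33. So were 7 of 10 H4 and 9 of 15 H2A genes, with medians of 0.09 and 0.06, while 1 of 5 H1 genes was. Both HET libraries lay above all KO libraries in 4 members (8.12% of all genes), namely Hist1h3b, Hist1h2bq, Hist1h2ao and Hist1h2bg. Without the library labelled KO 2 the members' median was 0.22, and it was 0.11 without HET 1, 0.12 without KO 4, 0.30 without KO 1 and 0.32 without KO 3.

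Hist1h2bj had the smallest p in HET against KO. It was at 41.4 and 29.8 TPM in HET and 12.4 to 23.1 TPM in KO, with no overlap in TPM but an overlap in normalized counts, and a log2 fold change of 0.93 ± 0.45 (SE, adjusted p = 0.512 by edgeR). Hist1h3b, an H3 copy, was at 13.2 and 14.6 TPM in HET and 1.77 to 10.5 TPM in KO, with 1.17 ± 0.66 (adjusted p = 0.561). Hist1h2bq was at 11.8 and 9.02 TPM in HET and 2.33 to 8.87 TPM in KO, with 1.26 ± 0.76 (adjusted p = 0.583). In all 3 the HET libraries were the highest in TPM, by a narrow margin in Hist1h2bq, and without the library labelled KO 2 the log2 fold changes were 0.91, 1.09 and 1.34. Hist3h2a, an H2A copy, lay the other way with 7.66 and 11.97 TPM in HET and 9.56 to 19.5 TPM in KO (-0.53 ± 0.32, adjusted p = 0.594, and -0.60 without the library labelled KO 2). Hist1h2ao held 20.2 and 14.9 counts in HET and 0 to 11.3 counts in KO, with 3 KO libraries at 0. Hist1h2ap had a log2 fold change of 0.20 ± 0.30.

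WT against HET had the largest median difference of the 4 comparisons, although only 2 libraries stood on each side. Most members of every class had a lower level in WT than in HET, and no member passed the test in the fit over all libraries. Of the 58 members tested, 0 had an adjusted p under 0.1 by edgeR (0.00697% of the 14354 genes tested), and DESeq2 called 1, Hist1h2bq (0.871% of all genes). An unadjusted p under 0.05 by edgeR was reached by 6 members (6.42% of all genes), and all 6 were lower in WT. With WT 1 left out 3 members reached it, with WT 2 or HET 1 left out 2, and with HET 2 left out 4. The fold change was below 0 in 49 of 58 members (48.7% of all genes), with a median of -0.72 against 0.01 over all genes. Both WT libraries lay below both HET libraries in 34 members (23.5% of all genes) and above them in 3 (24.5%). A fit of these 4 libraries alone gave an adjusted p under 0.1 to 3 members, Hist1h2ao, Hist1h2ap and Hist1h2bq, out of 523 genes called. By class, 16 of 17 H2B, 9 of 11 H3, 9 of 10 H4 and 12 of 15 H2A genes were lower in WT, against 3 of 5 H1 genes.

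The 6 members under the unadjusted threshold were again mostly low copies, and 3 of them had under 4 counts in WT. Hist1h2bq held 2.22 and 0 counts in WT and 53.1 and 72.2 counts in HET, and the ratio of counts per library total, HET over WT, was 70.7 with an exact 95% interval of 19.2 to 590 (counting error only; edgeR adjusted p = 0.477, DESeq2 adjusted p = 0.0034). Hist1h2ao, its neighbour across the printed promoter, held 0 estimated counts in both WT libraries (edgeR adjusted p = 0.745). Against a floor of 3 counts over the WT group, HET was 13.2-fold higher. That ratio is no lower bound, because the floor covers counting error only and not the division of reads shared with Hist1h2ap. Both genes of this pair were thus at or near 0 estimated counts in WT and had counts in both HET libraries. In KO they did not go together: KO 2, KO 5 and KO 6 held 0 counts of Hist1h2ao and 31.5, 16.5 and 46.0 of Hist1h2bq. Of their 31-base stretches, 6.22% in Hist1h2ao and 0% in the main Hist1h2bq transcript were their own. These estimates therefore depend on how Salmon divided shared reads. Hist1h2bf held 0 and 2.07 counts in WT and 27.4 and 4.12 counts in HET, a ratio of 17.5 with an interval of 4.46 to 151 (edgeR adjusted p = 0.767). The log2 fold change was -2.55 ± 0.91 (SE, edgeR adjusted p = 0.709) in Hist1h3b, with 3.32 and 1.26 TPM in WT against 13.2 and 14.6 TPM in HET. In Hist1h2bj it was -1.48 ± 0.59 (adjusted p = 0.740), with 15.3 and 9.48 TPM against 41.4 and 29.8 TPM. In Hist1h4h it was -1.88 ± 0.84 (adjusted p = 0.767), with 2.44 and 2.57 TPM against 9.77 and 9.28 TPM. Hist1h2ap had -0.74 ± 0.37 and an adjusted p of 0.794.

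**Figure D4:**
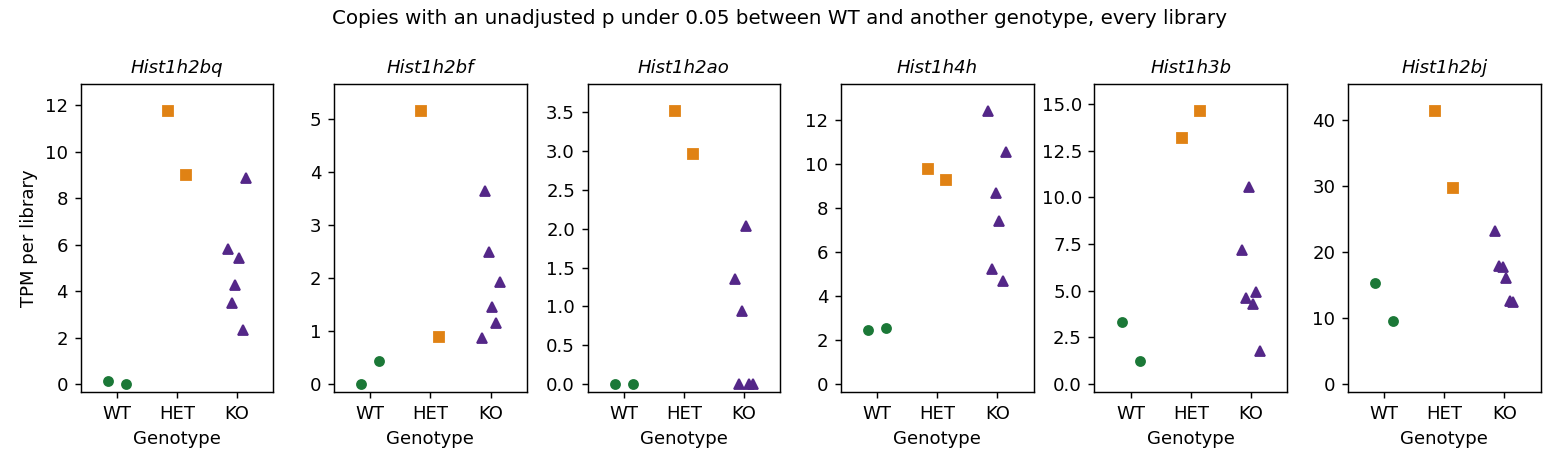
TPM in every library of the 6 histone genes with an unadjusted p under 0.05 in WT against KO or WT against HET, by genotype (green circles WT, orange squares HET, purple triangles KO). Hist1h2bq is at 0.138 and 0 TPM in WT, 11.8 and 9.02 TPM in HET and 2.33 to 8.87 TPM in KO.

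Summed by class, the genotypes differed most between WT and HET, and the KO libraries spread over both. The summed TPM of all 67 members was 4351 and 4876 in WT, 7831 and 7422 in HET, and 4144 to 7934 in KO with a median of 5752. These sums get no test because the members share reads. The KO mean (5942 ± 1519 TPM, SD, n = 6) lay between those of WT (4613 ± 371, n = 2) and HET (7627 ± 290, n = 2), and 4 KO libraries lay above both WT libraries while 1 lay below both. Without Hist1h2ap the sum was 1054 and 871 TPM in WT, 1522 and 1450 TPM in HET and 884 to 1651 TPM in KO.

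H2B was the class in which HET stood clear of KO, with 194 and 179 TPM in HET against 88.0 to 147 TPM in KO and 106 and 92.6 TPM in WT. The library labelled KO 2 lay inside that range with 131 TPM. Among single genes in normalized counts, both HET libraries lay above all KO libraries in 8.12% of all genes tested. H3 was at 89.8 and 79.6 TPM in WT, 159 and 160 TPM in HET, and 85.3 to 166 TPM in KO. H4 was at 178 and 151 TPM in WT, 288 and 253 TPM in HET, and 149 to 300.1 TPM in KO. In H3 and H4 the HET libraries lay inside the KO range. H1 showed the least difference, with 185 and 148 TPM in WT, 188 and 189 TPM in HET and 137 to 244 TPM in KO. The 9 members with at least 90% own stretches, most of their sum from Hist1h1b, were at 172 and 128 TPM in WT, 183 and 179 TPM in HET and 117 to 219 TPM in KO. Their log2 ratio of WT to HET was -0.27, against -0.73 for all members, and the log2 ratio of WT to KO was -0.18 against -0.37.

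**Figure D5:**
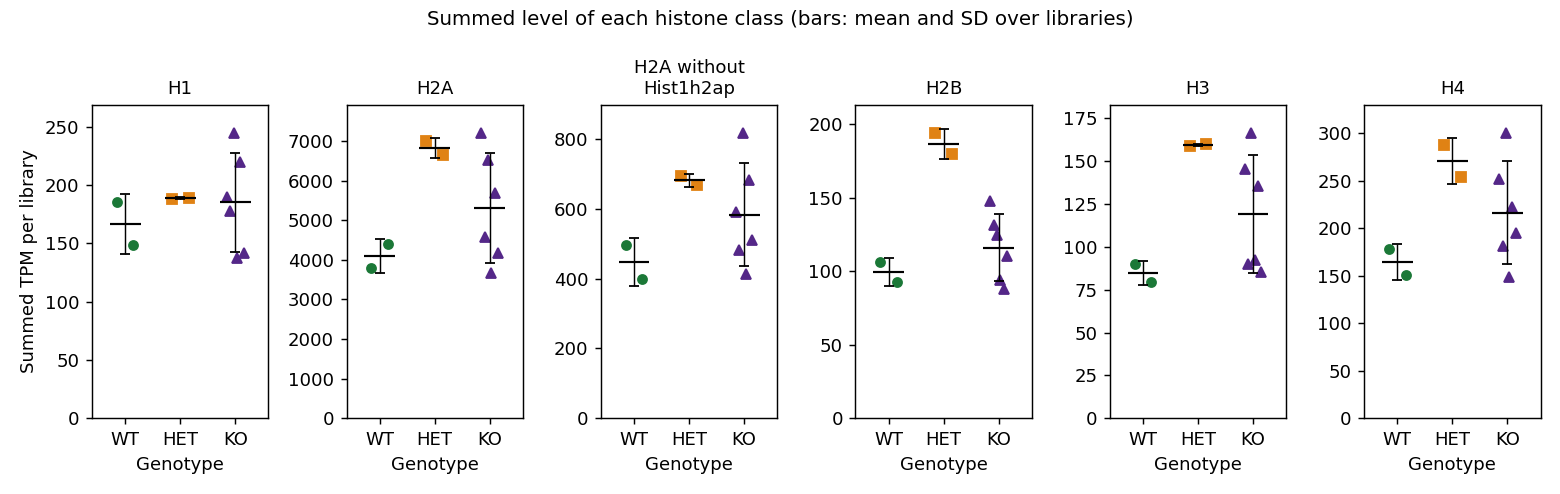
Summed TPM of each histone class per library, by genotype, with the mean as a bar and the SD over libraries as whiskers (WT n = 2, HET n = 2, KO n = 6); all axes start at 0. HET lies at 179 to 194 TPM in H2B, above all KO libraries, while in H1 the HET points at 188 and 189 TPM lie within the KO range.

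Some other gene lists had group medians in the same order as the histone sums, and others did not. The summed TPM of the 20 S phase genes listed, among them Mcm2 to Mcm7 and Pcna, was 3520 to 3896 in WT, 4319 to 4519 in HET and 2851 to 4314 in KO. That of the 12 G2 and M phase genes was 1649 to 1927 in WT, 2161 to 2268 in HET and 1559 to 2159 in KO. The 6 germinal center markers summed to 989 to 1045 TPM in WT, 1353 to 1360 TPM in HET and 729 to 1377 TPM in KO. The 4 naive B cell markers (Ighd, Fcer2a, Ccr7 and Klf2) went the other way, with 486 to 599.5 TPM in WT, 241 to 289 TPM in HET and 269 to 591 TPM in KO. By group medians HET was thus highest in the lists of dividing and germinal center cells and lowest in naive markers, as it was highest in histone sums. T cell markers summed to 187 to 189 TPM in WT, 137 to 139 TPM in HET and 118 to 155 TPM in KO. Myeloid markers summed to 412 to 481 TPM in WT, 52.7 to 67.9 TPM in HET and 24.3 to 743 TPM in KO, and erythroid markers to 133 to 187, 104 to 114 and 176 to 257 TPM. Plasma cell markers summed to 1455 to 1642 TPM in WT, 1257 to 1312 TPM in HET and 1276 to 1685 TPM in KO. The part of cell makeup and of the share of cells in S phase in the histone values was not tested, and in bulk samples fewer cells that express a gene and less RNA per cell cannot be told apart.

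The genes that make and handle histone mRNA gave no call either. Of 26 genes listed for histone mRNA processing and transcription, 24 were tested and 0 had an adjusted p under 0.1 in any of the 4 comparisons. Slbp, the stem-loop binding protein, was at 398 and 404 TPM in WT, 505 and 462 TPM in HET and 428 to 538 TPM in KO. Both WT libraries were below all others, with a log2 fold change of -0.36 ± 0.14 (SE, edgeR unadjusted p = 0.0231, adjusted p = 0.999) in WT against KO and -0.32 ± 0.15 (edgeR adjusted p = 0.79) in WT against HET. Ccne2, cyclin E2, which drives S phase entry, had -0.42 ± 0.17 in WT against KO (edgeR unadjusted p = 0.033). In WT against HET, 5 of these 24 genes had an unadjusted p under 0.05 by edgeR (6.42% of all genes), all lower in WT: Cdk2, Ccne2, Casp8ap2, Eri1, the exonuclease that trims histone mRNA ends, and Cpsf2, a part of the cleavage complex. In HET against KO, 8 of 24 did (10.2% of all genes), all higher in HET, Casp8ap2 (0.52 ± 0.15) and Eri1 (0.42 ± 0.12) among them. Without the library labelled KO 2, 8 of 24 did (11.5% of all genes), with 0.53 in Casp8ap2 and 0.41 in Eri1, and WT against KO gave -0.36 in Slbp and -0.42 in Ccne2.

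Chaperones carry newly made histones to DNA. Of the 19 listed, 0 had an adjusted p under 0.1 in any comparison, and their median log2 fold change was -0.11 in WT against KO and -0.26 in WT against HET. Hat1, which acetylates new H4, had -0.36 ± 0.14 in WT against KO (edgeR unadjusted p = 0.0301) and -0.37 without the library labelled KO 2, and Asf1b, which hands over H3 and H4, had -0.46 ± 0.20 in WT against HET (edgeR unadjusted p = 0.0362). An unadjusted p under 0.05 by edgeR was also reached by 3 of 19 in HET against KO (10.2% of all genes). In WT plus HET against KO 2 of 19 did (6.3%), and all of these were higher in the controls. Without the library labelled KO 2 it was 3 (11.5%) and 1 (8.88%). The list of 11 replication-independent histone genes includes H3f3b and H2afz, whose mRNAs have poly(A) tails. It also includes H2afj and H2afx, which share 31-base stretches with H2A members. The listed genes summed to 8378 to 8402 TPM in WT, 8943 to 8998 TPM in HET and 7563 to 10266 TPM in KO. Of the 10 tested, 0 had an adjusted p under 0.1 in any comparison, and their median log2 fold change was -0.26 in WT against KO and -0.10 in WT against HET, against -0.36 and -0.72 for the replication-dependent genes.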

How the data were processed

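RNA of sorted germinal center B cells was made into SMART-Seq v4 libraries and sequenced as paired reads of 150 bases. The authors quantified transcripts of Gencode vM17 with Salmon (version 0.9.1 in the submitters' processing notes, which also name DESeq2 2.11.40.6), and deposited estimated counts beside TPM for 64019 transcripts in every library. Both were summed per gene. Estimated counts were rounded to whole numbers.

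Genes passing filterByExpr were tested with edgeR 4.0.16 (quasi-likelihood test, TMM scaling, R 4.3.3), with p-values adjusted by Benjamini-Hochberg over all genes tested and a threshold of 0.1. WT against KO used those libraries alone, WT plus HET against KO used 2 groups, and HET against KO and WT against HET used all 10 libraries with a term per genotype. DESeq2 1.42.0 and limma 3.58.1 served as alternatives. TPM corrects for annotated length and library size, so a wrong annotated end shifts a member's level. Intervals and floors cover counting error only, and not the error in dividing reads shared by near-identical copies. Scripts were tested on simulated data.

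The histone genes and the gene lists were chosen with earlier results of these data known. Named were the 15 members with the highest mean TPM and the 5 with the smallest p in each comparison. Any member with an adjusted p under 0.1, Slbp, and Zbtb38 as the check of the labels were also named. Of the other lists, values are given for only some of the genes with an unadjusted p under 0.05. Other members named in the text were chosen after their values were seen. Sequences and coordinates came from Gencode vM21 (GRCm38) and RefSeq, and 63915 of the 64019 transcripts had a sequence there. Encoded proteins were translated from the transcripts. Some marker genes of the lists are not reported here and were left out of the list sums. The refit of listed genes and same-protein sums without the library labelled KO 2 was chosen after seeing the data.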

Additional observations from a re-analysis of the deposited data

Results flagged for a closer look

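Among the 6 KO libraries, the library labelled KO 2 held 46.1 TPM of Zbtb38, far from the others at 17.5 to 23.7 TPM, so that its distance to the next library took up most of the range of the group. It was the only one of 36 sets of KO values examined (named histone genes, class sums, Slbp, Zbtb38 and the histone share of counts) in which 1 library stood this far apart, and chance alone flags about 1 in 20 such groups. The histone values of this library lay inside the range of the other KO libraries in the sum over all members, with 5155 TPM against 4144 to 7934 TPM.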

How the results depend on the processing

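No member passed the threshold in WT plus HET against KO or in HET against KO under any alternative run. In WT against KO, limma on log2(TPM + 0.1) called 1 member, Hist1h2bq (-4.94). In WT against HET, the DESeq2 Wald test called 1 (Hist1h2bq, -6.31), limma on log2(TPM + 0.1) called 1 (Hist1h2bq, -6.07), and a fit of only the 4 libraries called 3 (Hist1h2bq -6.12, Hist1h2ao -7.26 and Hist1h2ap -0.73); the cause was not tested. Leaving out 1 library gave 0 calls in all 4 comparisons, with a median log2 fold change of -0.51 to -0.20 in WT against KO, -0.17 to 0.04 in WT plus HET against KO, 0.11 to 0.32 in HET against KO and -0.84 to -0.59 in WT against HET. The log2 ratio of summed TPM then ran from -0.45 to -0.27, -0.10 to 0.18, 0.28 to 0.46 and -0.81 to -0.65 in the same order. For WT against HET this ratio was -0.73, and it was -0.63 without Hist1h2ap and -0.27 over the members with at least 90% own stretches, a choice made after seeing the data. Members detected in every library numbered 43 at 10 counts and 42 at 1 TPM, and 48 to 51 with 1 library left out. Of 556 alternatives for 36 fold changes of single genes, 540 kept their direction. The reversals in WT against KO were Hist1h4n (0.073 and 0.081 with limma, -0.36 to 0.19 with 1 library left out), Hist1h2ag (0.0054 with at least 10 counts, 0.033 and 0.031 with limma, -0.70 to 0.46) and Hist2h2aa2 (-0.78 to 0.13). In WT plus HET against KO, Hist1h2ap turned to 0.044 with limma under both pseudocounts and ran from -0.27 to 0.079 with 1 library left out. Same-numbered libraries did not deviate together (correlations of -0.01 to 0.12), and a fit with the replicate number as a block gave 0 members past the threshold in each comparison. The block moved the count of all genes called from 1 to 6, 0, 4 and 66 in the order above, DESeq2 gave 5, 18, 458 and 125, and limma on log2(TPM + 0.1) gave 3, 0, 6 and 5. Where leaving out a library left 1 in its group, that library was assumed to vary like the others. Estimated counts of 0 to 2.22 in WT limit what can be said of Hist1h2bf, Hist1h2ao and Hist1h2bq.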
